A study of Caenorhabditis elegans with 43 samples.

Results

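The loci described here are the 5865 annotated piRNA genes whose start lies between 15300001 and 17200000 on chromosome IV (genome build WBcel235) of Caenorhabditis elegans, the distal stretch of the larger of the chromosome's piRNA clusters. They were chosen by annotated type and position alone and make up 39.86% of the 14714 piRNA loci of chromosome IV in the deposited table, which lists 15363 piRNA loci and 46904 features in all. Small RNA was sequenced from whole hermaphrodite populations, so fewer germ cells and less piRNA per germ cell cannot be told apart. There were 11 libraries in 4 groups. snpc-1.3(xk27) L4 worms at 48 h, 2 libraries, carry a loss-of-function allele of the gene for SNPC-1.3, and were set against L4 worms of the wild type strain N2 at 48 h, 3 libraries. TBSx2 gravid adults at 72 h, 3 libraries, carry snpc-1.3(xk36), in which TRA-1 binding sites upstream of snpc-1.3 are mutated (2xtbs) and which by its label also bears a 3xflag tag on snpc-1.3a. They were set against N2 gravid adults at 72 h, 3 libraries, with neither change. The worms of the small RNA libraries were grown at the same temperature on the same bacterial food, on plates. The germline makes sperm at 48 h and oocytes at 72 h, so that N2 at 48 h was also set against N2 at 72 h. Libraries of the 2 times were run on different flow cells, so time and flow cell cannot be told apart in that comparison, and the labels do not say whether replicates came from separate cultures. Chromatin immunoprecipitation (ChIP) of SNPC-1.3 at 48 h was taken from 2 replicates of each of 3 strains: snpc-1.3a::3xflag worms depleted of SNPC-4 by an auxin degron (snpc-4::aid with TIR1 driven by the germline promoter sun-1), snpc-1.3a::3xflag worms with SNPC-4 intact, and untagged N2. The ChIP worms were grown in liquid culture at the same temperature on another bacterial strain. The study names auxin for the depleted worms only, and its strain list gives them an unc-11(ed3) background. Auxin and background thus cannot be told apart from the loss of SNPC-4. The genotype label of the depleted strain does not list the tag that its title names.

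piRNAs are small RNAs of the germline that guide PIWI proteins to foreign and self transcripts. In C. elegans each piRNA is made from its own short transcript by RNA polymerase II, is 21 nt long and usually starts with U (T in the genome), and most of the genes carry an upstream motif that ends in GTTTCA and is counted as 8 nt with the 2 bases before it. The transcription complex at these genes is built around SNPC-4, a relative of the largest subunit of the complex that transcribes small nuclear RNAs. SNPC-1.3 is a germline paralog of another subunit of that complex, and TRA-1, the last regulator of the sex determination pathway, represses the snpc-1.3 gene in the oogenic germline. The first base of the motif is known to differ between piRNAs of the male and the female germline, C being the usual base of the male kind.

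The loci on which the results turn are shown with the 60 nt upstream of the piRNA in lower case and the piRNA itself in capitals at the end (WBcel235, 5′ to 3′ on the strand of the piRNA); where an exact GTTTCA is present upstream, it is also in capitals with the 2 bases before it. The first 4 were measured by Taqman assay in the study, 2 of them as male and 2 as female piRNAs. The next 4 had their highest mean level in N2 at 48 h, and the last 4 stood higher at 72 h than at 48 h in N2 and carry another first base or no exact motif. Named loci higher at 72 h that carry a C there, 21ur-6297, 21ur-667 and 21ur-3934, are not shown.
21ur-3142: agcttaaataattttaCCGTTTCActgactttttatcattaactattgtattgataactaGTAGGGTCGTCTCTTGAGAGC
21ur-3766: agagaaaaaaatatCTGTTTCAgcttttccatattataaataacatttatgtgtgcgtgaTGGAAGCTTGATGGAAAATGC
21ur-2502: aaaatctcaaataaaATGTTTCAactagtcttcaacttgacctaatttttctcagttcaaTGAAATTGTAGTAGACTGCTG
21ur-4817: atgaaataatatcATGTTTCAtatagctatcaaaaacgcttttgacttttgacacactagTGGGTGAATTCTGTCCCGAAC
21ur-3287: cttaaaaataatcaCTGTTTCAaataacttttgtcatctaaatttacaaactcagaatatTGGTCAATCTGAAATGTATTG
21ur-6420: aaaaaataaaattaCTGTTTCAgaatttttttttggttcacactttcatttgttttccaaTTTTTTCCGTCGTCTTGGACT
21ur-6881: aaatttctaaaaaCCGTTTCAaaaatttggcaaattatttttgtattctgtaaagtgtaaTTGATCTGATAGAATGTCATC
21ur-2327: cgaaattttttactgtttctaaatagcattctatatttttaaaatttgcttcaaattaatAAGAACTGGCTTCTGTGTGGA
21ur-434: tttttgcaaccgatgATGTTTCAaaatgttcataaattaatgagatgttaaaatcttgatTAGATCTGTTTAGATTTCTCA
21ur-6682: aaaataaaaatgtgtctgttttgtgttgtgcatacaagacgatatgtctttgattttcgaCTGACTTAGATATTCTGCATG
21ur-6516: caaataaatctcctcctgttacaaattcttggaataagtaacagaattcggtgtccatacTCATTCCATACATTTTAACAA
21ur-5300: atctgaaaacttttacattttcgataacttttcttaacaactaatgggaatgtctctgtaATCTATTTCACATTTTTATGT
In this order they lie at chrIV:16733405-16733485 (plus strand), chrIV:16057712-16057792 (minus), chrIV:15396785-15396865 (plus), chrIV:15386083-15386163 (minus), chrIV:16251505-16251585 (plus), chrIV:16473712-16473792 (minus), chrIV:16374640-16374720 (plus), chrIV:16661256-16661336 (minus), chrIV:15384654-15384734 (minus), chrIV:15903535-15903615 (plus), chrIV:16787523-16787603 (minus) and chrIV:16709350-16709430 (plus), upstream bases included. Of these, 21ur-3287 lies in an intron of F38C2.1 on the sense strand, 21ur-6516 lies antisense to a coding exon of Y43D4A.6, and the other 10 are intergenic. The motif base is C at 21ur-3142, 21ur-3766, 21ur-3287, 21ur-6420 and 21ur-6881, and A at 21ur-2502, 21ur-4817 and 21ur-434. 21ur-2327, 21ur-6682, 21ur-6516 and 21ur-5300 have no exact GTTTCA in the 60 nt, which says only that these letters are not in that stretch.

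The loci are evenly split between strands, 2922 on the plus and 2943 on the minus strand, and all are 21 nt long. A T is the first base of 5587 (95.3%, against 96.2% of all chromosome IV piRNAs). Most are intergenic: 4753 (81.0%, against 62.1% over chromosome IV), with 974 in introns (16.6%, against 33.1%), 94 in coding exons and 44 in exons of untranslated regions. Intronic loci are about as often sense (513) as antisense (460) to their 69 host genes, of which jac-1, a relative of the p120 catenin family, holds 140 and the uncharacterised Y105C5A.15 holds 115. Per 100 kb they are densest at 16.0–16.1 Mb (486 loci) and sparsest at 17.1–17.2 Mb (149 loci), and the largest stretch without one spans 51533 nt from 17078101 to 17129634. The median gap between neighbouring loci or overlapping groups is 230 nt. Many annotated loci overlap: 2674 (45.6%) share at least 1 base with another piRNA on the same strand, in 1198 groups of 2 to 5, and 1571 of the 1800 overlapping same-strand pairs (87.3%) hold identical counts in all 11 libraries, because a read was counted at every feature it touched. None of the 143 pairs that overlap on opposite strands did. The 5865 loci thus stand for 4389 separate places, and counts of loci below are also given in these overlapping groups where it matters.

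Libraries held 4336397 to 22346249 counts over all features, of which 214591 to 1490399 fell on these loci. Chromosome IV piRNAs took 7.28 to 8.93% of all counts in snpc-1.3(xk27) at 48 h, 8.40 to 10.7% in N2 at 48 h, 13.4 to 15.5% in TBSx2 at 72 h and 16.0 to 20.2% in N2 at 72 h. The embryo and oogenic miRNAs of the mir-35 family followed the labelled stage, with 0.550 to 0.569% and 0.571 to 0.655% of miRNA counts at 48 h in snpc-1.3(xk27) and N2, and 19.9 to 24.2% and 20.3 to 22.5% at 72 h in TBSx2 and N2. Counts on snpc-1.3 itself were at most 6 in any library and check no genotype (0 and 1 in snpc-1.3(xk27), against 1, 5 and 2 in N2 at 48 h). Replicate libraries differed by more than counting error (chi-square per degree of freedom of 2.40 to 26.4, the highest between TBSx2 replicates 1 and 3).

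Levels below are CPM, counts per 1000000 chromosome IV piRNA counts, scaled by edgeR's TMM factors over these piRNAs. Of the 5865 loci, 211 had no count in any library and 5654 were tested. The typical locus was rare: the median level was 3.71 CPM in snpc-1.3(xk27), 5.63 CPM in N2 at 48 h, 6.78 CPM in TBSx2 and 5.79 CPM in N2 at 72 h, while 868, 847, 914 and 931 loci reached 100 CPM in the same order. Counts were spread over more loci in N2 at 48 h than in the other groups. 50% of the counts on the loci lay on the 245 most abundant loci in N2 at 48 h, but on 145 in snpc-1.3(xk27), 153 in TBSx2 and 153 in N2 at 72 h. The loci took 48.9 and 49.5% of chromosome IV piRNA counts in snpc-1.3(xk27), against 46.3, 46.2 and 46.04% in N2 at 48 h, and 48.7, 48.5 and 48.8% in TBSx2, against 48.9, 48.7 and 49.1% in N2 at 72 h. The share was thus lower in every N2 library at 48 h than in any other library, and the libraries of TBSx2 and N2 at 72 h overlapped. With 1 locus per overlapping group, the mean share was 45.3% in snpc-1.3(xk27), 43.97% in N2 at 48 h, 45.98% in TBSx2 and 46.1% in N2 at 72 h. The plus strand held between 49.1 and 50.0% of the loci's counts in every library.

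The first comparison asked which loci differ between the spermatogenic and the oogenic germline. Of the 5654 loci tested, 1395 (24.7%) were higher and 1881 (33.3%) lower in N2 at 48 h than at 72 h (edgeR quasi-likelihood test, adjusted p of at most 0.05 over the 13982 chromosome IV piRNAs tested and a log2 fold change of at least 0.26 in size). Over all chromosome IV piRNAs 56.1% were called, 25.5% higher and 30.6% lower, so that both shares stood close to the background. In overlapping groups, 1014 of 4190 had a locus that was higher and 1274 one that was lower, and none had both. The libraries of the 2 times did not overlap at 1296 of the loci called higher (22.9% of those tested, against 23.6% over chromosome IV piRNAs) and 1803 of those called lower (31.9%, against 29.3%). How many were called in each direction rested on the scaling: of the loci called, 42.6% were higher with TMM, 58.0% with the size factors of DESeq2 (1760 higher and 1276 lower) and 26.7% when libraries were scaled to their miRNA counts (858 higher and 2353 lower). No locus called with TMM was called in the opposite direction with either other scaling. The other scalings were not set against each other. Over the 6086 chromosome IV piRNAs that averaged 10 CPM or more, the median log2 fold change was -0.84 with TMM, -0.09 with the DESeq2 size factors and -1.72 with the miRNA scaling, and the 2632 loci of the interval among them lay 0.07 below it with TMM.

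The Taqman-assayed 21ur-3142 was at 139, 205 and 130 CPM in N2 at 48 h, against 17.4, 20.99 and 31.1 CPM in N2 at 72 h. The groups do not overlap, and the log2 fold change was 2.80 ± 0.26 (SE, n = 3 and 3 libraries, edgeR adjusted p = 3.34e-25). 21ur-3766, whose counts are identical to those of the overlapping 21ur-13242, was at 225, 219 and 116 CPM at 48 h, against 37.8, 29.5 and 62.9 CPM at 72 h (log2 fold change 2.13 ± 0.24). The female piRNAs of the assay went the other way. 21ur-2502 was at 150, 142 and 94.9 CPM at 48 h, against 289.9, 300.5 and 335 CPM at 72 h (-1.25 ± 0.24). 21ur-4817 was at 167, 124 and 102 CPM at 48 h, against 596, 603 and 676 CPM at 72 h (-2.25 ± 0.25). Both are lower in each 48 h library than in each 72 h library.

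Among loci that share no base with another piRNA, the smallest adjusted p among the loci higher at 48 h belonged to 21ur-6420, 21ur-3287, 21ur-5306 and 21ur-2592, all with a C at the motif base. 21ur-6420 was at 582, 735 and 365 CPM in N2 at 48 h, against 14.9, 24.1 and 27.0 CPM in N2 at 72 h (log2 fold change 4.68 ± 0.27, edgeR adjusted p = 1.6e-63). 21ur-2592 reached 1760, 2110 and 1921 CPM at 48 h, against 109, 127 and 132 CPM at 72 h (3.98 ± 0.26). Those lower at 48 h with the smallest adjusted p were 21ur-6516, 21ur-6297, 21ur-667 and 21ur-434. Of these, 21ur-6297 (CGGTTTCA) and 21ur-667 (CTGTTTCA) also have a C at the motif base, and 21ur-6516 has no exact motif. 21ur-434, with a motif base A, was at 122, 81.3 and 63.3 CPM at 48 h, against 628, 625 and 874 CPM at 72 h (-3.00 ± 0.26, adjusted p = 2.9e-29). 21ur-6516 was at 6.25, 22.4 and 6.03 CPM at 48 h, against 485, 437 and 525 CPM at 72 h (-5.21 ± 0.31). 21ur-667, which lies close to it on the same strand within Y43D4A.6, was at 0, 0 and 3.01 CPM at 48 h, against 141, 108 and 64.9 CPM at 72 h. The levels of 21ur-6516, 21ur-6297 and 21ur-667 also differed several-fold between the TBSx2 libraries, as described below.

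**Figure D1:**
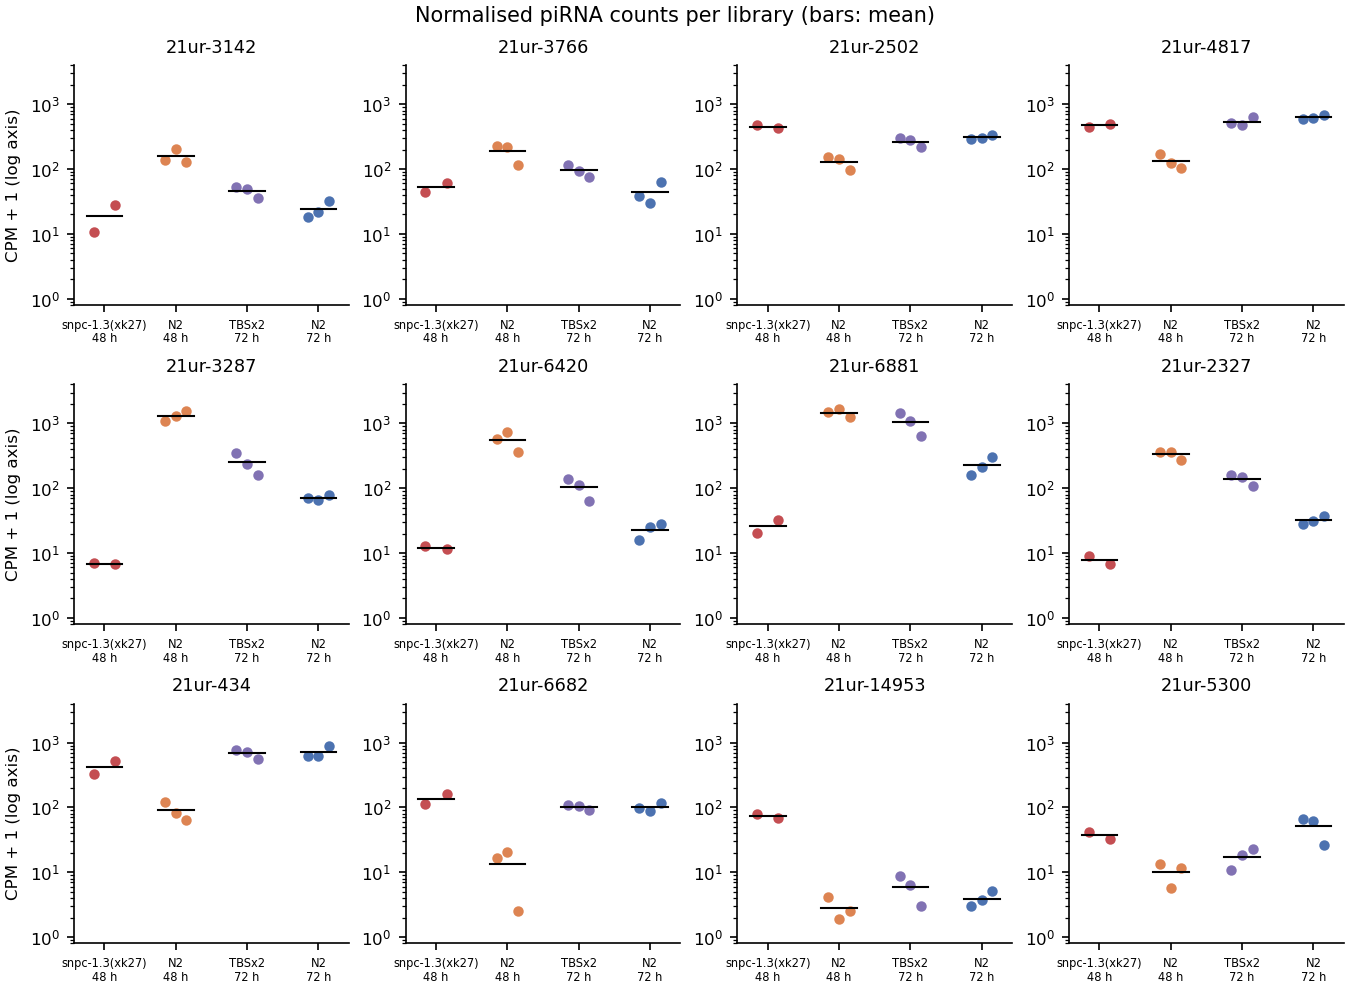
Normalised counts of 12 piRNAs of the interval per library (y axis, CPM plus 1 on a log axis) in snpc-1.3(xk27) at 48 h, N2 at 48 h, TBSx2 at 72 h and N2 at 72 h (x axis); each point is a library and the bar is the mean. 21ur-3287, 21ur-6420, 21ur-6881 and 21ur-2327 are high in N2 at 48 h, lowest in snpc-1.3(xk27) and intermediate in TBSx2, while 21ur-2502, 21ur-4817, 21ur-434 and 21ur-6682 are lowest in N2 at 48 h.

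The comparison of snpc-1.3(xk27) with N2 at 48 h asked which loci depend on SNPC-1.3 when sperm are made. 1568 loci (27.7%) were higher and 1325 (23.4%) lower in snpc-1.3(xk27). Over all chromosome IV piRNAs 49.3% were called, 25.6% higher and 23.7% lower, again close to the shares among these loci. In overlapping groups 1037 of 4190 had a locus that was higher and 974 one that was lower. The libraries of the 2 genotypes did not overlap at 1543 of the loci called higher (27.3% of those tested, against 25.0% over chromosome IV piRNAs) and at 1294 of those called lower (22.9%, against 23.1%). Of the loci called, 54.2% were higher with TMM, 39.9% with the DESeq2 size factors (1066 higher and 1607 lower) and 37.3% with the miRNA scaling (911 higher and 1529 lower). The median log2 fold change of chromosome IV piRNAs with at least 10 CPM was 0.78 with TMM, 0.12 with the DESeq2 size factors and 0.08 with the miRNA scaling, and the loci of the interval lay 0.04 to 0.05 above it in each. The DESeq2 size factors and the miRNA scaling moved this median down, by -0.67 and -0.70. That all 1325 loci called lower with TMM were also called lower with either is therefore no check of these calls. Of the 1568 called higher with TMM, 1066 were also called higher with the DESeq2 size factors and 911 with the miRNA scaling.

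21ur-3287 was at 5.91 and 5.79 CPM in snpc-1.3(xk27), against 1101, 1320 and 1528 CPM in N2 at 48 h (log2 fold change -7.80 ± 0.44, n = 2 and 3 libraries, edgeR adjusted p = 3.16e-65). 21ur-770 was at 5.91 and 8.10 CPM in snpc-1.3(xk27), against 1197, 1847 and 1317 CPM (-7.63 ± 0.43), and 21ur-2592 at 7.88 and 17.4 CPM, against 1760, 2110 and 1921 CPM (-7.15 ± 0.41). 21ur-4621, in an intron of sta-1, a STAT family transcription factor gene, was at 29.6 and 22.0 CPM in snpc-1.3(xk27), against 1693, 2262 and 1770 CPM in N2 at 48 h (-6.24 ± 0.38). These 4 had the smallest adjusted p among the loci lower in snpc-1.3(xk27) that share no base, and every mutant library was below every N2 library at each of them. Both male piRNAs of the Taqman assay fell, 21ur-3142 to 9.85 and 26.6 CPM in snpc-1.3(xk27) (-3.01 ± 0.35) and 21ur-3766 to 43.4 and 59.01 CPM (-1.84 ± 0.30), against the N2 values given above.

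Among the loci higher in snpc-1.3(xk27), the smallest adjusted p belonged to 21ur-6682, 21ur-10318, 21ur-14953 and 21ur-7072, none of which has an exact GTTTCA upstream. 21ur-6682 was at 112 and 159 CPM in snpc-1.3(xk27), against 15.6, 19.6 and 1.51 CPM in N2 at 48 h (log2 fold change 3.37 ± 0.33, edgeR adjusted p = 1.26e-22). 21ur-7072, antisense in an intron of jac-1, was at 449 and 746 CPM in snpc-1.3(xk27), against 98.5, 144 and 84.4 CPM (2.44 ± 0.26). The levels of 21ur-6682 in snpc-1.3(xk27) stood near those in TBSx2 (107, 105.4 and 89.4 CPM) and N2 at 72 h (95.5, 87.5 and 114 CPM). 21ur-14953 did not follow that pattern: it was at 78.8 and 68.3 CPM in snpc-1.3(xk27), against 3.13, 0.934 and 1.51 CPM in N2 at 48 h (5.36 ± 0.57), and stayed at 7.70, 5.30 and 1.99 CPM in TBSx2 and 1.99, 2.68 and 4.06 CPM in N2 at 72 h. It lies sense in a coding exon of skr-13, a Skp1-related gene, so that reads from fragments of that transcript cannot be told apart from the piRNA. The female piRNAs of the assay were higher in snpc-1.3(xk27) as well, 21ur-2502 with 471 and 428 CPM (1.79 ± 0.26) and 21ur-4817 with 445 and 495 CPM (1.84 ± 0.27).

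The comparison of TBSx2 with N2 at 72 h asked what happens when TRA-1 sites at snpc-1.3 are mutated in the oogenic germline. 624 loci (11.04%) were higher and 274 (4.85%) lower in TBSx2. Over all chromosome IV piRNAs 15.8% were called, 11.3% higher and 4.47% lower, close to the shares of the interval. In overlapping groups 448 of 4190 had a locus that was higher and 199 one that was lower. The libraries did not overlap between the genotypes at 587 of the loci called higher (10.4% of those tested, against 10.6% over chromosome IV piRNAs) and at 194 of those called lower (3.43%, against 3.40%). The higher calls made up 69.5% of the loci called with TMM and 74.1% with the DESeq2 size factors (703 higher and 246 lower), but 15.0% with the miRNA scaling (183 higher and 1034 lower), under which the median of all chromosome IV piRNAs was -0.53, against 0.00 with TMM. Leaving out N2 replicate 1 at 72 h brought the lower calls to 64, N2 replicate 2 to 90, TBSx2 replicate 2 to 102 and TBSx2 replicate 1 to 120, so the number of loci lower in TBSx2 rests on single libraries.

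21ur-6881 was at 1457, 1071 and 639 CPM in TBSx2, against 162, 215 and 308 CPM in N2 at 72 h (log2 fold change 2.21 ± 0.25, n = 3 and 3 libraries, edgeR adjusted p = 6.18e-16). With 21ur-6420 (140, 113 and 63.6 CPM in TBSx2, against 14.9, 24.1 and 27.0 CPM), 21ur-2327 (161, 147 and 107 CPM, against 27.4, 30.4 and 35.8 CPM) and 21ur-2656 (71.3, 65.7 and 60.9 CPM, against 11.9, 13.4 and 14.2 CPM) it had the smallest adjusted p among the higher loci that share no base. At all 4 the log2 fold change lay between 2.16 and 2.33 and the groups do not overlap. The level in TBSx2 stayed under that in N2 at 48 h at 21ur-6420, 21ur-2327 and 21ur-2656 in every library, while at 21ur-6881, with 1476, 1666 and 1266 CPM in N2 at 48 h, 1 TBSx2 library reached the range. Both male piRNAs of the Taqman assay rose, 21ur-3142 to 51.9, 48.7 and 34.4 CPM in TBSx2 (0.99 ± 0.26, adjusted p = 0.00208, a call lost with the miRNA scaling at 0.47 and with all features in the fit at 1.08) and 21ur-3766 to 117, 91.6 and 74.2 CPM (1.15 ± 0.24). The female ones gave no call: 21ur-2502 was at 304, 276 and 216 CPM in TBSx2 (-0.22 ± 0.22, adjusted p = 0.596) and 21ur-4817 at 506, 480 and 632 CPM (-0.21 ± 0.23, adjusted p = 0.596).

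Loci lower in TBSx2 moved less. 21ur-5300 was at 9.73, 17.5 and 21.9 CPM in TBSx2, against 64.2, 60.3 and 25.02 CPM in N2 at 72 h (log2 fold change -1.66 ± 0.29, edgeR adjusted p = 6.24e-07). 21ur-3910 was at 41.3, 44.5 and 55.6 CPM in TBSx2, against 146, 112 and 80.5 CPM (-1.27 ± 0.24). At 21ur-6060 and 21ur-3934 the change was -1.03 ± 0.22 and -0.998 ± 0.22. In each of these 4 the lowest N2 library was replicate 3 and the highest TBSx2 library was also replicate 3, with no overlap between genotypes.

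The loci called in snpc-1.3(xk27) and those called in TBSx2 could be set against each other because these comparisons share no library. The counts here use the TMM calls. With the miRNA scaling the TBSx2 lists would hold 183 higher and 1034 lower loci, and the list of lower loci also rests on single libraries. Of the 624 loci higher in TBSx2, 600 were lower in snpc-1.3(xk27), which is 96.2% of the TBSx2 list and 45.3% of the 1325 loci lower in snpc-1.3(xk27). Of the 274 loci lower in TBSx2, 230 were higher in snpc-1.3(xk27), 83.9% of that list and 14.7% of the 1568 loci higher in snpc-1.3(xk27). There were 3 loci lower in both and 13 higher in both. Over all chromosome IV piRNAs the shares were much the same: 1495 of 1580 piRNAs higher in TBSx2 (94.6%) were lower in snpc-1.3(xk27), 45.1% of that list, and 524 of 625 lower in TBSx2 (83.8%) were higher in snpc-1.3(xk27), 14.7% of that list. The 600 loci had a median level of 4.69 CPM in snpc-1.3(xk27), against 87.4 CPM in N2 at 48 h, and 36.6 CPM in TBSx2, against 14.1 CPM in N2 at 72 h. Their median log2 fold change was -4.27 in snpc-1.3(xk27) and 1.36 in TBSx2, and 467 of them (77.8%) have a C at the motif base. The 230 loci had median levels of 58.5 CPM in snpc-1.3(xk27), against 16.1 CPM in N2 at 48 h, and 36.8 CPM in TBSx2, against 69.8 CPM in N2 at 72 h, and 49 of them (21.3%) have a C there. The 722 loci lower in snpc-1.3(xk27) but not called in TBSx2 were rarer, with a median of 7.38 CPM in TBSx2, against 4.35 CPM in N2 at 72 h, and 75.5% of them have a C at the motif base.

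The promoter motif was searched as exact GTTTCA in the 60 nt upstream, on the strand of the piRNA. It is present at 3736 of the 5865 loci (63.7%), against 64.7% of all chromosome IV piRNAs, and 4.40% of all 60 nt windows of chromosome IV and 7.70% of those of the interval hold it. It starts a median of 44 nt before the 5′ end of the piRNA, and within 42 to 46 nt at 3316 loci (88.8%). The first base of the 8 nt motif is C at 75.6% of loci with the motif, A at 15.3%, T at 6.83% and G at 2.03%, and at 8 loci it falls outside the 60 nt, so that these enter no class by base. CTGTTTCA alone is found at 1978 loci and ATGTTTCA at 498.

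Calls in all 3 comparisons divided by this base. Of 2738 tested loci with a C, 1065 (38.9%) were higher and 451 (16.5%) lower in N2 at 48 h than at 72 h. Of 553 with an A, 58 (10.5%) were higher and 296 (53.5%) lower, and of 244 with a T, 6 (2.46%) were higher and 160 (65.6%) lower. In snpc-1.3(xk27), 341 loci with a C were higher (12.5%) and 1013 lower (37.0%), against 261 higher (47.2%) and 53 lower (9.58%) of those with an A and 130 higher (53.3%) and 9 lower (3.69%) of those with a T. In TBSx2, 484 loci with a C were higher (17.7%) and 64 lower (2.34%), against 22 higher (3.98%) and 44 lower (7.96%) with an A. The 2040 tested loci with no exact motif resembled those with an A more than those with a C: 260 (12.7%) were higher and 938 (45.98%) lower in N2 at 48 h. With the miRNA scaling, loci with a C were about as often higher (679) as lower (683) in N2 at 48 h, and in TBSx2 they were more often lower (322) than higher (142), though less often lower than loci with an A (11.8% against 28.9%). In snpc-1.3(xk27), loci with a C were more often lower than higher and those with an A or a T more often higher than lower under each of the 3 scalings. Loci with no exact motif were higher in TBSx2 about as often as lower with the DESeq2 size factors (131 and 127), against 113 and 141 with TMM. The shares by base were alike over all chromosome IV piRNAs, where 39.7% of loci with a C were higher at 48 h and 37.7% were lower in snpc-1.3(xk27), close to the shares of the interval.

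**Figure D2:**
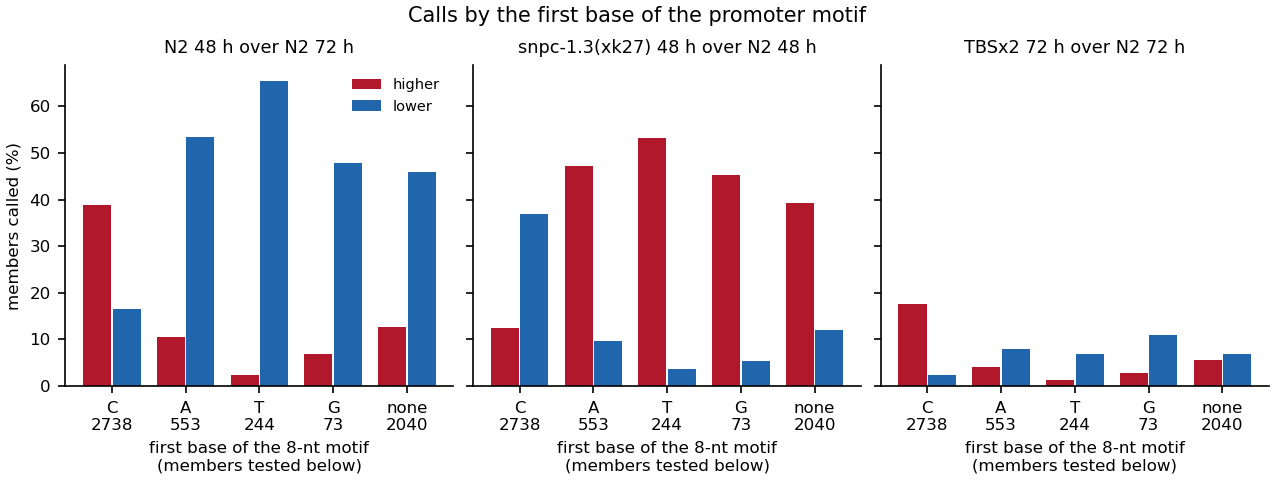
Share of tested loci of the interval called higher (red) or lower (blue) in each comparison (y axis, percent) by the first base of the 8 nt motif or no exact motif (x axis, with the number of loci tested). Loci with a C were called higher in N2 at 48 h (38.9%), lower in snpc-1.3(xk27) (37.0%) and higher in TBSx2 (17.7%) with TMM, and in the opposite direction less often, while each other class leans the other way; with the miRNA scaling the loci with a C lean to neither side in N2 at 48 h and to lower in TBSx2.

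Loci with a C first were also counted by their second base. 40.6% of 1921 loci with CTGTTTCA, 33.3% of 412 with CAGTTTCA, 37.3% of 209 with CCGTTTCA and 35.7% of 196 with CGGTTTCA were higher in N2 at 48 h, and 14.7%, 23.8%, 8.61% and 26.5% of the same classes were lower. In snpc-1.3(xk27), 37.9%, 32.0%, 38.3% and 36.7% of them were lower and 10.8%, 18.4%, 8.13% and 20.9% higher. Over all chromosome IV piRNAs the same classes were lower in N2 at 48 h at 12.8%, 22.2%, 15.0% and 20.6%, and higher in snpc-1.3(xk27) at 9.86%, 16.2%, 12.4% and 15.3%. The difference between these classes was not tested. Among loci with C first, 39.5% of the 2481 with the motif 42 to 46 nt upstream were higher at 48 h and 37.6% lower in snpc-1.3(xk27), against 33.5% and 30.7% of the 257 with the motif at another distance. Loci that do not start with T were called about as often as those that do (22.9% of 262 and 24.8% of 5392 higher at 48 h), and intronic loci about as often as intergenic ones (24.8% of 946 and 24.7% of 4583 higher at 48 h, and 23.6% and 23.5% lower in snpc-1.3(xk27)).

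The share of counts that fell on loci with a C does not depend on how libraries are scaled. Of all counts on the loci, loci with a C took 31.3 and 30.1% in snpc-1.3(xk27), against 57.3, 56.8 and 58.4% in N2 at 48 h. They took 34.3, 35.0 and 36.4% in TBSx2, against 33.0, 32.9 and 31.6% in N2 at 72 h. The groups do not overlap in either comparison, and the 2 snpc-1.3(xk27) libraries lay below every N2 library at 72 h. Loci with an A took 21.3 and 21.3% in snpc-1.3(xk27), against 11.7, 12.2 and 11.9% in N2 at 48 h, and 18.7, 19.01 and 17.8% in TBSx2, against 19.3, 19.6 and 20.1% in N2 at 72 h. No test was run on these shares.

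The most abundant loci of the interval were picked within each group. Those picked in snpc-1.3(xk27), TBSx2 or N2 at 72 h were called lower in N2 at 48 h than at 72 h with TMM. This direction follows in part from the choice of groups. Among those picked in N2 at 48 h, 21ur-669 was called higher and 21ur-3511 lower. The other loci picked there, 21ur-3381, 21ur-3103 and 21ur-14963, gave no call. 21ur-7174, with no exact motif, was at 3835 and 4607 CPM in snpc-1.3(xk27), against 1022, 1281 and 841 CPM in N2 at 48 h (log2 fold change 2.01 ± 0.29), and at 5593, 5151 and 3603 CPM in TBSx2, against 5591, 5514 and 6282 CPM in N2 at 72 h (-0.28 ± 0.26, edgeR adjusted p = 0.559). 21ur-1237 and 21ur-8536, which start 1 nt apart and have identical counts, were at 3281 and 5773 CPM in snpc-1.3(xk27), against 1011, 1163 and 958 CPM, and at 7839, 5831 and 4353 CPM in TBSx2, against 4236, 4013 and 7468 CPM in N2 at 72 h, where the groups overlap. 21ur-2290, 21ur-4319 (whose counts are identical to those of 21ur-1424) and the overlapping 21ur-7602 and 21ur-5504 (identical to 21ur-8276 and 21ur-11000) changed in the same directions, with log2 fold changes of -1.71, -2.26 and -1.64 in N2 at 48 h over 72 h and 1.53, 1.93 and 1.68 in snpc-1.3(xk27) over N2. The 4 overlapping loci 21ur-3511, 21ur-6113, 21ur-10308 and 21ur-11482, which hold identical counts, with a motif base A, differed less, with -0.84 ± 0.26 and 1.08 ± 0.28, and neither was called with the DESeq2 size factors (-0.09 and 0.41). 21ur-669, with a motif base C and in an intron of Y51H4A.8, was the most abundant locus of N2 at 48 h with 2780, 3374 and 2581 CPM, against 232, 293 and 413 CPM in N2 at 72 h (3.22 ± 0.26), and was at 120 and 142 CPM in snpc-1.3(xk27) (-4.46 ± 0.34) and 1308, 973 and 608 CPM in TBSx2 (1.63 ± 0.25).

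21ur-3381, 21ur-3103 and 21ur-14963 share all their reads and carry CTGTTTCA, yet were nearly level: 1831 and 2433 CPM in snpc-1.3(xk27), against 1932, 2181 and 2088 CPM in N2 at 48 h, and 2745, 1905 and 1614 CPM in TBSx2, against 1881, 1833 and 2434 CPM in N2 at 72 h. Their log2 fold change was 0.01 ± 0.25 in N2 at 48 h over 72 h and 0.05 ± 0.28 in snpc-1.3(xk27) over N2 with TMM, without a call in either. With the miRNA scaling both became negative and were called (-0.80 and -0.70), and with the DESeq2 size factors the second was called at -0.64, so their direction is set by the scaling.

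Position was tested on counts summed over 100 kb windows, with the strands apart, in 1 fit of the 172 windows of chromosome IV that had enough counts, 38 of them in the interval. In N2 at 48 h over 72 h, 5 windows of the interval were higher and 22 lower, where 68.0% of all windows were called, 39.0% higher and 29.1% lower. All 5 higher windows are on the plus strand, at 16.2–16.3, 16.6–16.7, 16.9–17.0, 17.0–17.1 and 17.1–17.2 Mb, and none of the 19 minus-strand windows was higher while 13 were lower. In the 134 windows outside the interval, 62 were higher and 28 lower. In snpc-1.3(xk27) over N2, 22 windows of the interval were higher and 6 lower, where 62.2% of all windows were called, 30.8% higher and 31.4% lower, and outside the interval 31 were higher and 48 lower. The same 5 plus-strand windows were lower, with the minus-strand window at 16.4–16.5 Mb (log2 fold change -0.30). In TBSx2 over N2, 1 window of the interval was higher and none lower (edgeR adjusted p of at most 0.05, with 13 of 38 under an unadjusted p of 0.05), where 12.8% of all windows were called, 11.6% higher and 1.16% lower. It is the last plus-strand window, at 17.1–17.2 Mb (0.39), which was not called when TBSx2 replicate 2 or N2 replicate 1 at 72 h was left out. With libraries scaled to miRNA counts, no window of the interval was higher in N2 at 48 h and none in snpc-1.3(xk27).

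**Figure D3:**
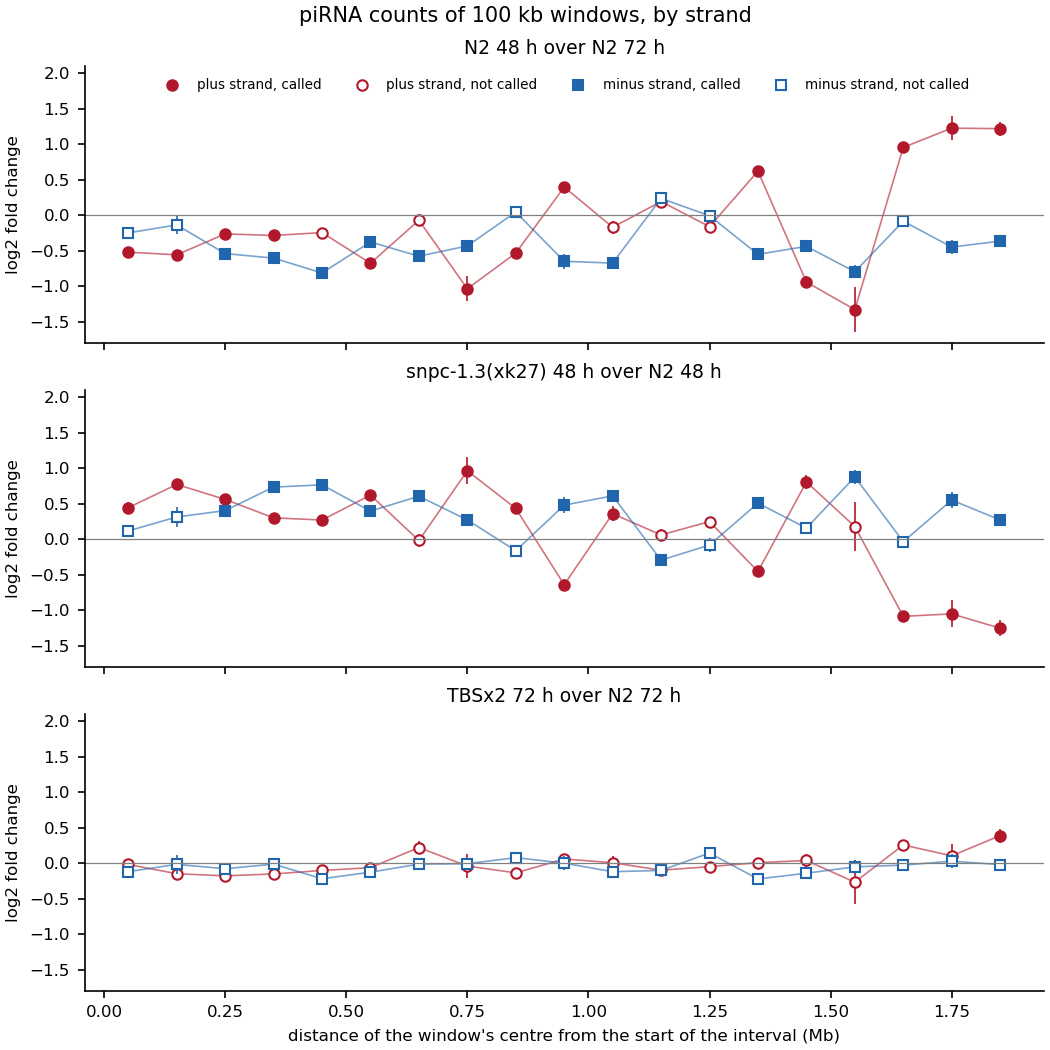
log2 fold change of summed piRNA counts in 100 kb windows (y axis, with SE) against distance from the start of the interval in Mb (x axis), plus strand in red circles and minus strand in blue squares, filled where called. The last 3 plus-strand windows stand at 0.96, 1.23 and 1.22 in N2 at 48 h over 72 h and at -1.09, -1.05 and -1.25 in snpc-1.3(xk27) over N2, apart from the minus-strand windows of the same positions. With the miRNA scaling no window is higher in N2 at 48 h.

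The last 0.3 Mb of the interval, chosen for a closer description after these values were seen, holds 229 plus-strand and 282 minus-strand loci. Their summed counts give a ratio of plus to minus strand that no scaling can change. On the log2 scale it was -2.06 and -2.06 in snpc-1.3(xk27), against -0.47, -0.63 and -0.64 in N2 at 48 h. It was -2.06, -1.83 and -1.74 in TBSx2, against -2.02, -2.04 and -2.17 in N2 at 72 h. N2 at 48 h stood apart from all other libraries, while TBSx2 and N2 at 72 h overlap. Without the most abundant locus of each strand the ratio was -1.91 and -1.998 in snpc-1.3(xk27), against -0.55, -0.68 and -0.59 in N2 at 48 h. The plus strand of this stretch took 0.493 and 0.530% of chromosome IV piRNA counts in snpc-1.3(xk27), against 1.37, 1.32 and 1.22% in N2 at 48 h, while the minus strand took 2.05 and 2.20%, against 1.91, 2.05 and 1.91%. Of the 222 plus-strand loci tested there, 69 were higher and 50 lower in N2 at 48 h than at 72 h, and of the 270 on the minus strand 58 were higher and 86 lower. These are 31.1% higher and 22.5% lower on the plus strand, and 21.5% higher and 31.9% lower on the minus strand, where 25.5% of chromosome IV piRNAs were higher and 30.6% lower. The first base of the motif is C at 88.5% of the plus-strand loci with the motif and 73.5% of those on the minus strand. The plus-strand share is not even: 97.1% at 16.9–17.0, 70.4% at 17.0–17.1 and 97.6% at 17.1–17.2 Mb. On the minus strand it is 80.0%, 62.9% and 79.7% in the same windows, and over the interval 75.6%. A relation of this base to the strand difference was not tested.

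TBSx2 libraries differed by more than counting error, and 1 short run of loci that varied between them was picked out after its values were seen. Between 16830052 and 16838709 on the plus strand lie 34 loci in 25 overlapping groups. Their summed level was 2581, 9472 and 15114 CPM in TBSx2 replicates 1, 2 and 3, against 11754, 12166 and 12243 CPM in N2 at 72 h. It was 2861 and 3725 CPM in snpc-1.3(xk27), against 2725, 2931 and 2174 CPM in N2 at 48 h. TBSx2 replicate 1 thus lay with the 48 h libraries and replicate 3 above all N2 libraries. At 33 of the 34 loci replicate 1 was the lowest and replicate 3 the highest TBSx2 library, but at only 2 of the 18 minus-strand loci of the same stretch, whose sum was 6048, 5305 and 3598 CPM in TBSx2, against 5231, 5988 and 6418 CPM in N2 at 72 h. The most abundant of the run, 21ur-2649, was at 674, 2302 and 2885 CPM in TBSx2, against 2350, 2512 and 3073 CPM in N2 at 72 h, and 21ur-2508 at 264, 1264 and 2228 CPM, against 1591, 1702 and 1669 CPM. Of the loci of the run, 20 have a C, 3 an A, 1 a T and 10 no exact motif. 29 were lower and none higher in N2 at 48 h than at 72 h (edgeR), where 30.6% of chromosome IV piRNAs were lower and 25.5% higher. In snpc-1.3(xk27), 9 were higher and 7 lower, where 25.6% of chromosome IV piRNAs were higher and 23.7% lower. In TBSx2, 9 were lower and none higher, where 4.47% of chromosome IV piRNAs were lower and 11.3% higher. The protein-coding gene Y116A8A.7 is annotated on the same strand from 16830208 to 16830790, near the start of the run. It had 45.8, 221 and 419 CPM in the TBSx2 libraries, against 374, 360 and 303 CPM in N2 at 72 h. It was likewise lowest in TBSx2 replicate 1 and highest in replicate 3. The abundant 21ur-2649 and 21ur-2508 start at 16838056 and 16837989, outside that gene. The counts give no read lengths, so piRNAs and other RNA of this stretch cannot be told apart. For fragments of the Y116A8A.7 transcript this concerns only loci within the gene. Of the 2632 loci that averaged 10 CPM or more, 46 were more than 4 times as high in TBSx2 replicate 3 as in replicate 1 (with 1 CPM added to each) and 1 less than the inverse of that. Over all 6086 chromosome IV piRNAs at that level, 73 were above the limit and 3 below its inverse. 25 of the 46 are in this run, and 21ur-6516 (87.2, 312 and 592 CPM), 21ur-667 (13.4, 47.1 and 162 CPM) and 21ur-6297 (22.7, 130 and 295 CPM in TBSx2, against 204, 185 and 183 CPM in N2 at 72 h) showed the same order. Some abundant loci differed in the other order, within the limit of 4. 21ur-7602 was at 5313, 2895 and 1945 CPM in TBSx2 replicates 1, 2 and 3, and 21ur-2290 at 6000, 4369 and 2690 CPM. The part of the spread between TBSx2 libraries in the calls of TBSx2 was not tested beyond leaving out each library.

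**Figure D4:**
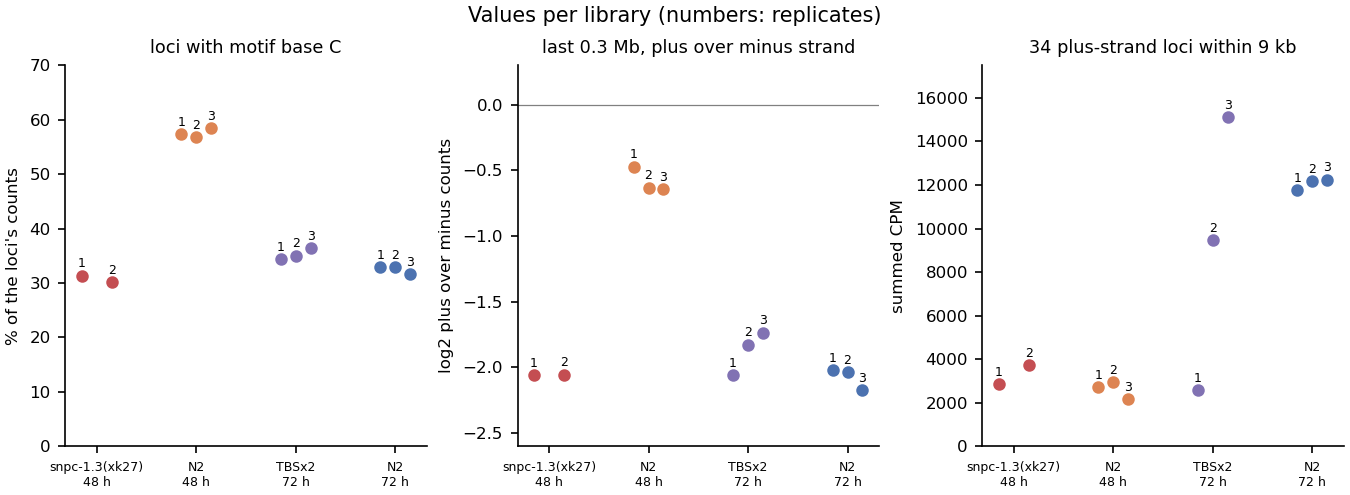
Values per library (points, numbered by replicate) in snpc-1.3(xk27) at 48 h, N2 at 48 h, TBSx2 at 72 h and N2 at 72 h: the percent of the interval's piRNA counts on loci with a motif base C (left), the log2 ratio of plus-strand to minus-strand counts in the last 0.3 Mb (middle) and the summed CPM of the 34 plus-strand loci within 9 kb (right). N2 at 48 h stands apart in the first 2 panels, and the TBSx2 replicates spread from 2581 to 15114 CPM in the last.

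SNPC-1.3 ChIP at 48 h was compared over 1 kb bins, 1900 of them in the interval, of which 1318 hold the 5′ end of a locus. The deposited lists give only bins where the IP lay above a background level. In the tagged strain with SNPC-4 intact 1616 and 1593 bins of the interval were listed in the 2 replicates, in the SNPC-4-depleted strain 633 and 360, and in untagged N2 419 and 328. In listed bins the median log2 ratio of IP to input was 0.049 and 0.166 in the depleted strain, 0.862 and 1.04 in the tagged strain, and 0.057 and 0.134 in N2. Over bins listed in both strains, the ratio in the tagged strain exceeded that in untagged N2 by a median of 0.743 (415 bins, replicate 1) and 0.622 (326 bins, replicate 2) on the log2 scale. It exceeded it by 0.929 and 1.02 in bins with the 5′ end of a locus and by 0.259 and 0.249 in bins with none. The ratio was higher in 100% of the compared bins with a 5′ end in both replicates (241 and 163 of 1318). It was also higher in 92.0 and 90.2% of the bins with none. In the rest of the large cluster the shares with a 5′ end were 100 and 99.6%. With SNPC-4 depleted the ratio was below that in the tagged strain by a median log2 difference of -0.824 and -0.625, with -0.945 and -1.10 in bins with a 5′ end and -0.259 and -0.237 in bins with none. With 2 replicates a strain and bins listed by the outcome, no test was run.

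The bins of the interval were much like those of the rest of the large cluster, where the tagged strain exceeded N2 by a median of 0.744 and 0.687, and unlike those of the small cluster (0.236 and 0.181) and of chromosome IV outside both clusters (-0.026 and -0.021). In bins where every locus with a motif has a C, the tagged strain exceeded N2 by 0.973 and 1.08, and in bins where every such locus has another base by 0.907 and 0.705, over 13 and 9 bins only. Along the interval the median excess per 100 kb lay between 0.199 and 1.06 in replicate 1 and between 0.117 and 1.29 in replicate 2. It was lowest at 16.3–16.4 Mb in replicate 1 (0.199) and at 16.4–16.5 Mb in replicate 2 (0.117), where the loci are also sparse (189 and 193 per 100 kb). At 16.9–17.2 Mb, the stretch of the strand difference, it was 0.309, 0.408 and 0.327 in replicate 1 and 0.311, 0.436 and 0.360 in replicate 2.

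**Figure D5:**
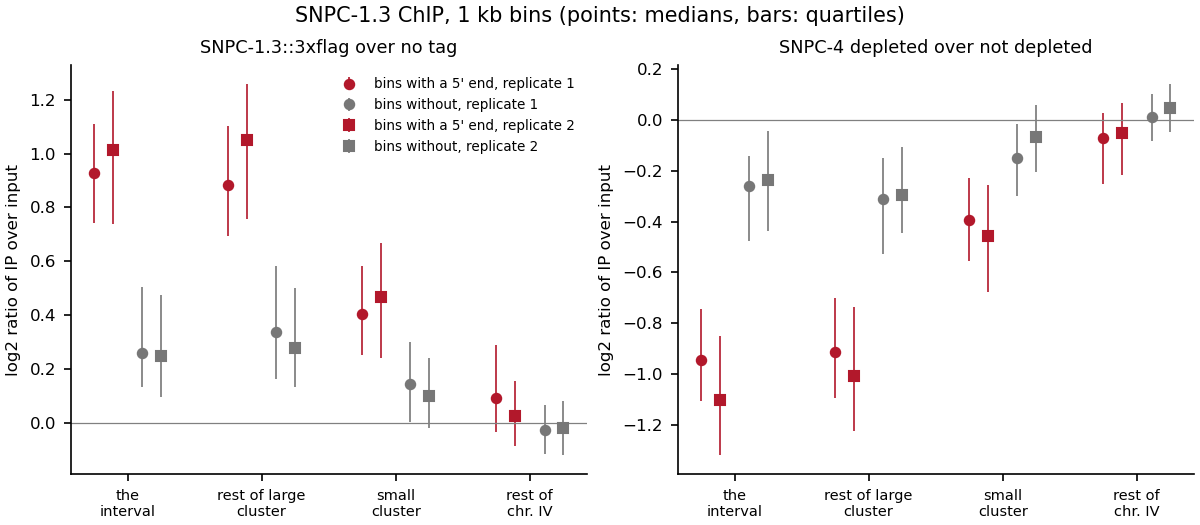
Median log2 ratio of SNPC-1.3 IP over input between strains in 1 kb bins (y axis; bars span the quartiles) for the interval, the rest of the large cluster, the small cluster and the rest of chromosome IV (x axis), with bins that hold the 5′ end of a piRNA locus in red and other bins in grey, replicate 1 as circles and replicate 2 as squares. In the interval the tagged strain exceeds untagged N2 by 0.929 and 1.02 in bins with a 5′ end, and the depleted strain lies below the tagged one by -0.945 and -1.10.

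At the borders of the interval, the first locus inside is 21ur-8687 at 15300046 on the plus strand, with 5.91 and 1.16 CPM in snpc-1.3(xk27), against 23.4, 33.6 and 55.7 CPM in N2 at 48 h. The nearest locus outside, 21ur-7160 at 15299495, had counts in 1 TBSx2 library only. The last locus inside is 21ur-13926 at 17199441 on the minus strand, in an intron of cnnm-1, with at most 1.35 CPM in any library. The next outside, 21ur-5689 at 17200219 in the same intron, was at 1.97 and 5.79 CPM in snpc-1.3(xk27), against 14.1, 30.8 and 19.6 CPM in N2 at 48 h.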

How the data were processed

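Small RNA was sequenced in 11 libraries and SNPC-1.3 ChIP with input in 12. Small RNA reads had been trimmed by the authors with Trimmomatic 0.39, kept at 15 to 30 nt, aligned to WBcel235 without mismatches with Bowtie 1.1.1 and assigned with featureCounts of Subread 1.6.3, in which a read of several places or features was counted at each. The deposited values are raw counts per feature. For ChIP, reads were trimmed with Trim Galore 0.5.0, aligned with Bowtie2 2.3.4.2, cleared of duplicates with Picard 2.22.1 and filtered with SAMtools 1.9. The authors deposited the count and the CPM of IP and input in listed 1 kb bins, and a signal, which is the CPM of the IP less a constant per file. TRA-1 peak lists and the authors' normalised counts were not used here. Columns of the ChIP tables that carry the study's own comparisons and scores were left unread.

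For the small RNA, edgeR 4.0.16 (R 4.3.3) was run on the 13982 chromosome IV piRNAs detected at least once: a quasi-likelihood fit by the legacy method, with TMM factors computed over the same piRNAs and the 4 groups sharing 1 estimate of the spread. P-values were adjusted by Benjamini-Hochberg over all of them, and a locus was called at a log2 fold change of at least 0.26 in size and an adjusted p of at most 0.05. Window sums were fitted in the same way after filterByExpr. Where replicates are only separate libraries, p-values measure the spread between these libraries. For the motif share the exact binomial interval at 95% is 62.5 to 64.9%, which covers counting error only. In simulated counts, 200 piRNAs were given a known change, of which 64% were called in N2 at 48 h over 72 h (13657 piRNAs simulated), 44% in snpc-1.3(xk27) over N2 (13647) and 73.5% in TBSx2 over N2 (13641), with 7, 5 and 5 false calls. Of 20 changed windows among 172, 75%, 60% and 75% were called, with 0, 0 and 1 false calls. The changed piRNAs were drawn from those with higher levels, and all changes lay well above the call threshold. All other piRNAs and windows were left unchanged, unlike in the real comparisons, so these figures do not give recovery or false calls there. DESeq2 1.42.0 was an alternative, as were other scalings, filters, thresholds, window sizes, a replicate block and leaving out each library. Sequences came from the WBcel235 genome of RefSeq and gene context from an Ensembl annotation of the same build, in which all 5865 loci had the coordinates of the table. Summaries were made with Python 3.11.15, pandas 2.3.3, NumPy 2.4.6 and SciPy 1.17.1.

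The loci, lists and rules were chosen with earlier results of these data known. Named piRNAs are those of the study's Taqman assays; in each comparison and direction the 4 loci with the smallest adjusted p among those called, without overlap between the groups' libraries and sharing no base with another piRNA; the 5 loci with the highest mean CPM in each group; and the loci at the borders. The run near 16.83 Mb and its members, and the last 0.3 Mb, were chosen after their values were seen.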

Additional observations from a re-analysis of the deposited data

How the results depend on the processing

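Counts of loci kept within 1.5 times of those reported under every alternative run except the following. Among loci whose sequence occurs once and that share no base, fewer loci by construction, 1115 were called in N2 at 48 h over 72 h (508 higher, 607 lower), 973 in snpc-1.3(xk27) over N2 (477 higher, 496 lower) and 323 in TBSx2 over N2 (222 higher, 101 lower). With libraries scaled to miRNA counts, 858 were higher in N2 at 48 h, 911 higher in snpc-1.3(xk27), and 183 higher and 1034 lower in TBSx2. This scaling moved the median log2 fold change of chromosome IV piRNAs by -0.89, -0.70 and -0.53 in the order of these comparisons, and the DESeq2 size factors moved it by 0.75, -0.67 and 0.05. With the DESeq2 Wald test, 1068 were lower in N2 at 48 h, 924 higher in snpc-1.3(xk27) and 142 lower in TBSx2. For TBSx2, 451 loci were called with all features in the fit, 19 of them lower, and 107 were lower at a log2 threshold of 1. Beyond the scaling, the cause was not tested.

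Leaving out 1 library gave 2979 to 3307 calls in N2 at 48 h over 72 h (1252 to 1416 higher, 1690 to 1899 lower), 2283 to 2912 in snpc-1.3(xk27) over N2 (1224 to 1605 higher, 1059 to 1326 lower) and 537 to 1047 in TBSx2 over N2 (452 to 653 higher, 64 to 410 lower). Without TBSx2 replicate 2, N2 replicate 1 or N2 replicate 2 at 72 h, 585, 537 and 542 loci were called in TBSx2, against 898 with all libraries. Windows called ranged from 25 to 28 (5 to 7 higher, 18 to 23 lower), 23 to 29 (17 to 23 higher, 6 to 7 lower) and 0 to 3 (0 to 2 higher, 0 to 1 lower) in the same order of comparisons. For TBSx2, 2 windows were called without snpc-1.3(xk27) replicate 1, which changes only the shared spread and the scaling, 3 without TBSx2 replicate 1, and 0 without TBSx2 replicate 2 or N2 replicate 1 at 72 h.

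Replicate numbers were not used to pair the samples. Deviations of libraries with the same number correlated at -0.237 to -0.045, -0.073 to 0.104 and -0.476 to 0.123 in the 3 comparisons. Those of libraries with other numbers correlated at -0.171 to 0.201, -0.15 to 0.15 and -0.287 to 0.409. Deviations from means of so few libraries are bound to each other, so these values cannot decide whether samples were paired. With a replicate block 3132, 2754 and 780 loci were called, of which 3128, 2740 and 774 were also called without it. With 1 piRNA per overlapping group in the fit, chosen after seeing the data, 2295, 2018 and 620 loci were called.

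With 50 kb windows, 58 were called in N2 at 48 h (13 higher, 45 lower), 57 in snpc-1.3(xk27) (43 higher, 14 lower) and 6 in TBSx2 (3 higher, 3 lower). With 200 kb windows, 13 (3 higher, 10 lower) and 12 (10 higher, 2 lower) were called in the first and second comparison. With the miRNA scaling 0 windows were higher and 35 lower in N2 at 48 h, 9 were called and 0 higher in snpc-1.3(xk27), and 31 were called in TBSx2, 0 higher and 31 lower. Without the most abundant piRNA of each window and strand, 2 windows were called in TBSx2, both higher, and with 1 piRNA per overlapping group, 8 were higher in N2 at 48 h.

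Without the 10 most abundant loci, the share of chromosome IV piRNA counts was 47.2% in snpc-1.3(xk27), 45.4% in N2 at 48 h, 46.7% in TBSx2 and 46.9% in N2 at 72 h. With 1 locus per overlapping group it was 45.3%, 43.97%, 45.98% and 46.1% in the same order. The deposited ChIP signal has a constant subtracted in each file, which sets its zero, so its log2 ratios are no measure of the size of a difference: 3.51 and 3.12 for the tagged strain over N2, and -3.58 and -2.89 for the depleted over the tagged strain. In bins listed in all 6 files, the log2 differences in the ratio of IP to input were 0.572 and -0.518 in replicate 1.

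21ur-3381, 21ur-3103 and 21ur-14963 changed sign, to -0.80 with the miRNA scaling in N2 at 48 h over 72 h, and to -0.64 with the DESeq2 size factors, -0.70 with the miRNA scaling and -0.64 with the DESeq2 Wald test in snpc-1.3(xk27) over N2. Over the named piRNAs, 1540 of 1596 alternative values kept direction and side of the threshold.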
